A study of Homo sapiens with 12 samples.

Results

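The genes described here were 5 ligands of the tumour necrosis factor (TNF) superfamily (TNFSF18, TNFSF10, TNFSF9, TNFSF15 and TNF), the NF-kB subunit genes NFKB1 and NFKB2, and 3 feedback genes of NF-kB signalling (NFKBIA, TNFAIP3 and BIRC3), 10 of the 60617 genes listed in each file. They were picked by symbol with earlier results of these data known, and TNFSF18 was included because its counts differed between the siRNAs. For that reason TNFSF18 is described by its values, with no test between groups. RNA-seq had been carried out on 12 samples of SNU308, a gallbladder cancer cell line of wild-type genotype, transfected with 1 of 3 siRNAs at 25 nM for 3 days before RNA isolation. The groups of 4 samples received a non-targeting control siRNA (NTC), siCEACAM6#2 or siCEACAM6#3, the latter both directed at CEACAM6, a cell surface adhesion glycoprotein. The series design speaks of 4 individual experiments, and a single line with transient knockdown is the whole model. The comparisons ask how these genes responded to each siRNA and whether the responses to the siRNAs differed.

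Ligands of the TNF superfamily are made as membrane proteins, some of them shed, and act through receptors of the TNF receptor superfamily. Many of these receptors recruit TRAF adaptors and the cIAP ubiquitin ligases, activate the IkB kinase complex and so release NF-kB dimers into the nucleus. NF-kB then induces its own inhibitors, among them IkB alpha (NFKBIA) and the ubiquitin-editing enzyme A20 (TNFAIP3), which end the signal. In epithelial tumour cells the pathway is known for its inflammatory and survival genes.

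The siRNAs are shown because they alone distinguish the treated groups. Each target sequence, as listed by the study, matched CEACAM6 at 1 place, in exon 6 of 6 and within the 3′ UTR (GRCh38). The siCEACAM6#2 target lies at chr19:41771369-41771389 and the siCEACAM6#3 target at chr19:41771611-41771631, both on the plus strand. Capitals mark the 7 bases that pair with positions 2 to 8 (the seed) of the antisense strand.
siCEACAM6#2: cagccatgcaatgCCAAATAa
siCEACAM6#3: ctcctaatagtcaTACTAGTa
The 7 bases of siCEACAM6#2 occurred in the annotated 3′ UTR of TNFAIP3 at 1 place and in that of no other member, whereas 15.5% of 13767 tested genes with a 3′ UTR held them. Those of siCEACAM6#3 occurred in the 3′ UTR of TNFSF15 at 1 place and in that of no other member, against 6.63% of the genes. Such a match is a description of the letters, not a binding site.

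Promoters are shown for the members whose window held the kappaB consensus, the 10-base motif bound by NF-kB. RefSeq windows of 300 bases, 250 before and 50 after the start (GRCh38.p14), were found for all 10 members and searched on both strands. The motif was present in 4 of them (NFKB1, NFKBIA, TNFAIP3 and BIRC3), against 11.3% of 35116 promoter windows, and TNFAIP3 and BIRC3 each held 2 matches, as did 2.04% of windows with 2 or more. The stretches run from 30 bases before the first match to at most 30 bases after the last and stop short of the annotated transcript. They lie at chr4:102501280-102501329 (plus strand), chr14:35404791-35404860 (minus strand), chr6:137867162-137867213 (plus strand) and chr11:102317255-102317388 (plus strand), in the order printed. Capitals mark the motif.
NFKB1: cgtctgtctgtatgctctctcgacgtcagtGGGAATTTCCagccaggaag
NFKBIA: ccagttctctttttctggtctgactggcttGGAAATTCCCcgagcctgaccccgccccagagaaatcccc
TNFAIP3: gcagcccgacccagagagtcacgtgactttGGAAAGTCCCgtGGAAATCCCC
BIRC3: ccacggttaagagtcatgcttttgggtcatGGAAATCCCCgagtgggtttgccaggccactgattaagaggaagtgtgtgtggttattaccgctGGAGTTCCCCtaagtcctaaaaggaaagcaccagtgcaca
The A20 gene carries its matches 2 bases apart just upstream of the start, whereas those of BIRC3 begin 199 and 135 bases before it. No match in the 6 other windows says only that these letters are not in 300 bases. The TNFSF15 window (chr9:114792481-114792780) lies inside the gene (chr9:114784652-114806039, minus strand). The bases before the outermost start of TNFSF15 were therefore not searched.

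Libraries held 21799476 to 22059456 counts, so depth differed little between samples. CEACAM6 was lower in all 8 siRNA samples. It measured 524, 569, 596 and 619 CPM (counts scaled to library size after TMM normalisation) in NTC, 353, 343, 286 and 329 with siCEACAM6#2, and 423, 386, 424 and 438 with siCEACAM6#3. The log2 difference from NTC was -0.82 ± 0.07 (SE; limma-voom adjusted p = 2.71e-05) for siCEACAM6#2 and -0.46 ± 0.07 (adjusted p = 0.0151) for siCEACAM6#3, and the exact two-sided permutation p was 0.0286 for each, the smallest that 4 against 4 allows. The target was thus 0.36 ± 0.07 log2 units higher with siCEACAM6#3 than with siCEACAM6#2 (adjusted p = 0.016). The siCEACAM6#3 call against NTC was lost on leaving out NTC replicate 2, 3 or 4 or siCEACAM6#3 replicate 3, with log2 differences of -0.47 to -0.43. All 8 epithelial markers were expressed, led by KRT19 at 3244 TPM (transcript abundance scaled by length and library size), while the leukocyte marker PTPRC had 0 to 20 counts. The mitochondrial share of counts ranged from 11.8 to 12.9% over the NTC samples, from 12.2 to 13.3% over those of siCEACAM6#2 and from 12.5 to 15.3% over those of siCEACAM6#3, and its part in the results below was not tested. In bulk RNA, fewer cells and less RNA per cell cannot be told apart.

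Per length, in TPM averaged over the 12 samples, the inhibitor gene NFKBIA was the most abundant member at 86.6 (range 74 to 98.6). The subunit genes NFKB1 (20.4, range 16.4 to 23.3) and NFKB2 (19.2, range 15.5 to 23.7) followed, and their ranges overlapped almost entirely. TNFSF10 at 10.7 (8.94 to 12.3), TNFSF9 at 7.6 (6.31 to 9), BIRC3 at 5.01 (3.23 to 6.92), TNFAIP3 at 3.65 (1.95 to 4.91) and TNFSF15 at 2.11 TPM (1.99 to 2.28) formed a descending series in which each gene overlapped its neighbours. TNFSF18 stood lower at 0.754 TPM (0.125 to 1.6), and TNF was at 0 to 0.0763 TPM. NFKBIA did not overlap the gene after it, and neither did NFKB2 and TNFSF10, TNFSF15 and TNFSF18, or TNFSF18 and TNF.

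**Figure D1:**
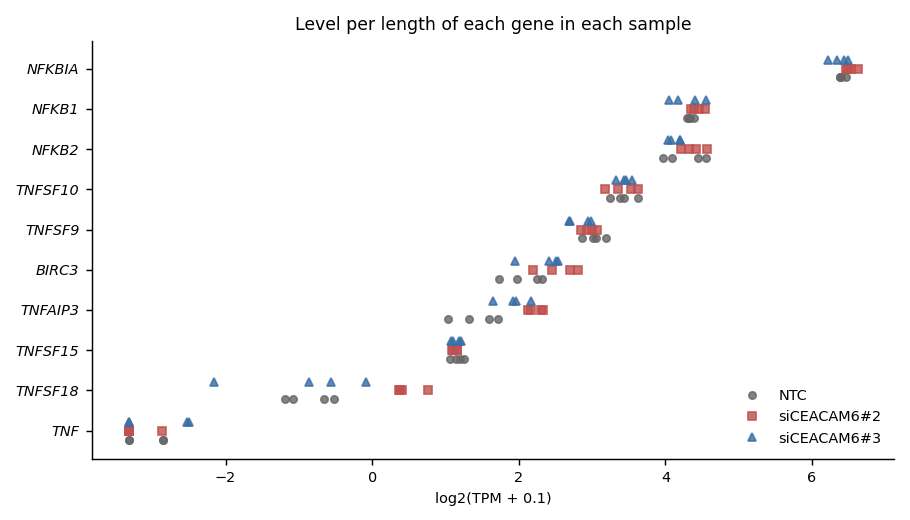
Level of each of the 10 genes in each of the 12 samples, as log2(TPM + 0.1) on the x axis, with genes on the y axis ordered by their mean and groups shown by colour and symbol. NFKBIA sits alone at the top (74 to 98.6 TPM), NFKB1 and NFKB2 share a range, and TNF lies at or near 0.

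Among the ligands, TNFSF18 (GITR ligand, chr1:173039202-173050941, which costimulates T cells) was the gene chosen for its difference between the siRNAs. It had 19, 12, 11 and 17 counts in NTC, 52, 39, 39 and 39 with siCEACAM6#2, and 27, 4, 19 and 15 with siCEACAM6#3. In CPM these were 0.848, 0.534, 0.505 and 0.776, then 2.36, 1.80, 1.78 and 1.75, then 1.21, 0.188, 0.871 and 0.702. All 4 siCEACAM6#2 samples were above every other sample, and the siCEACAM6#3 samples spread on both sides of the NTC samples. The mean CPM was 0.666 ± 0.172 (SD, n = 4) in NTC, 1.92 ± 0.291 with siCEACAM6#2 and 0.743 ± 0.426 with siCEACAM6#3. The log2 difference from NTC was 1.52 ± 0.35 (SE) for siCEACAM6#2 and -0.06 ± 0.42 for siCEACAM6#3, and siCEACAM6#3 minus siCEACAM6#2 was -1.58 ± 0.35. Replicate 2 of siCEACAM6#3, with 4 counts, weighed on the last 2 values, which were 0.47 and -1.05 without it. The counts are few, so single libraries move this gene more than the others.

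TNFSF10 (TRAIL, a ligand that triggers apoptosis through death receptors, chr3:172505508-172523475) lay at 11.5, 11.5, 10.5 and 11.5 CPM in NTC, 10.4, 12.9, 10.9 and 11.7 with siCEACAM6#2, and 11.3, 12.5, 12.2 and 11.5 with siCEACAM6#3. The 3 groups overlapped, and the log2 difference from NTC was 0.03 (95% interval -0.15 to 0.20, adjusted p = 0.935) for siCEACAM6#2 and 0.08 (-0.10 to 0.25, adjusted p = 0.732) for siCEACAM6#3. TNFSF9 (4-1BB ligand, a T cell costimulator, chr19:6531026-6535924) measured 9.20, 10.1, 9.45 and 8.30 CPM in NTC, 9.69, 9, 8.34 and 8.96 with siCEACAM6#2, and 8.66, 7.58, 7.61 and 9.69 with siCEACAM6#3. Its log2 difference from NTC was -0.04 (-0.25 to 0.16, adjusted p = 0.908) and -0.15 (-0.36 to 0.06, adjusted p = 0.558), and again the groups overlapped.

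TNFSF15 (TL1A, the ligand of death receptor 3, chr9:114784652-114806039) measured 11, 11.4, 11 and 10.2 CPM in NTC, 10.6, 11.3, 10.4 and 10.3 with siCEACAM6#2, and 10.0, 11.5, 11.2 and 11 with siCEACAM6#3. The log2 difference from NTC was -0.03 (-0.19 to 0.13, adjusted p = 0.91) and 0.00 (-0.16 to 0.16, adjusted p = 0.993), and here too the groups overlapped. TNF itself (chr6:31575565-31578336), the founding member and a strong inducer of NF-kB, had 1, 1, 0 and 0 counts in NTC, 0, 1, 0 and 0 with siCEACAM6#2, and 2, 0, 0 and 2 with siCEACAM6#3. A count of 0, found in 7 samples, allows up to 3 counts or 0.136 to 0.138 CPM of the unadjusted library totals, and this covers counting error only. TNF did not pass the filter on low counts, which the 9 other members did, and a difference was not detectable at this depth.

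**Figure D2:**
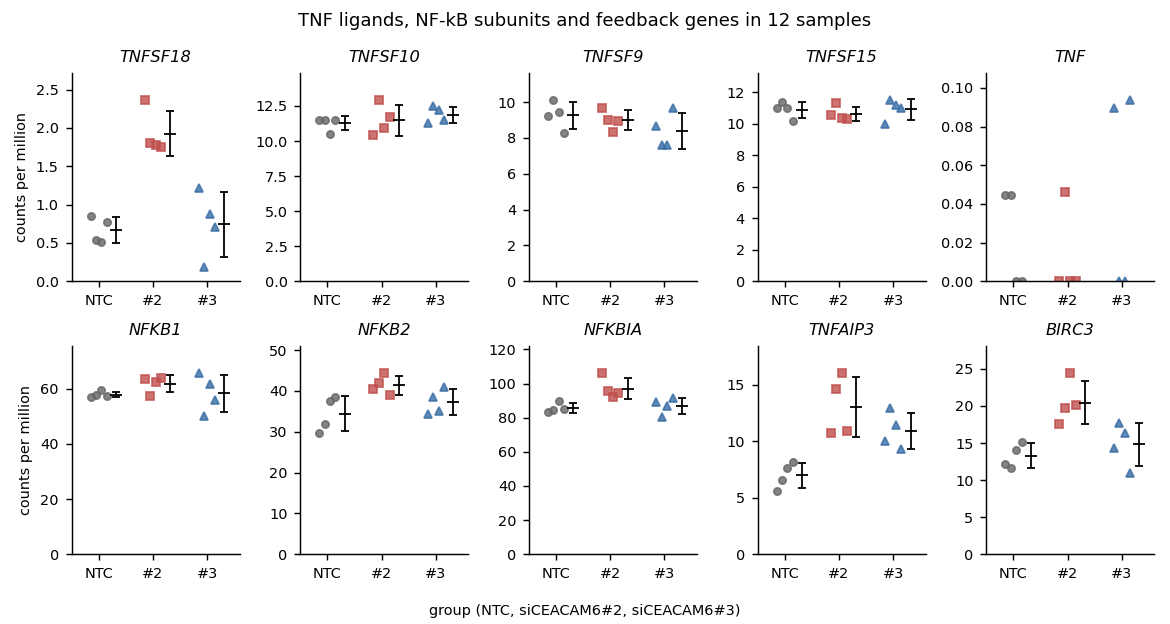
CPM of the 10 genes on the y axis, each on its own scale from 0, in the 4 samples of NTC (grey circles), siCEACAM6#2 (red squares) and siCEACAM6#3 (blue triangles), with the mean and SD in black (not drawn for TNF, at 0 to 2 counts). For TNFAIP3 all 8 siRNA samples lie above the 4 NTC samples, and for NFKB2, NFKBIA and BIRC3 all siCEACAM6#2 samples do. Over all genes, 5.34% had all siCEACAM6#2 samples above NTC and 2.99% all siCEACAM6#3 samples.

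Of the subunit genes, NFKB1 (chr4:102501330-102617302, encoding p105, the precursor of p50) measured 57.0, 57.8, 59.4 and 57.5 CPM in NTC, 63.6, 57.4, 62.6 and 64.0 with siCEACAM6#2, and 65.6, 50.2, 61.9 and 55.8 with siCEACAM6#3. The groups overlapped, with log2 differences from NTC of 0.09 ± 0.07 (SE; adjusted p = 0.625) and 0.00 ± 0.07 (adjusted p = 0.99). NFKB2 (chr10:102394110-102402524, encoding p100, the precursor of p52 in the non-canonical branch) measured 29.6, 32, 37.5 and 38.5 CPM in NTC, 40.5, 41.9, 44.3 and 38.9 with siCEACAM6#2, and 34.3, 38.6, 35 and 41.0 with siCEACAM6#3. In CPM all siCEACAM6#2 samples were above all NTC samples, but only narrowly, and in TPM the groups overlapped. The log2 difference was 0.27 ± 0.08 (adjusted p = 0.13) for siCEACAM6#2 and 0.12 ± 0.09 (adjusted p = 0.594) for siCEACAM6#3, neither past the threshold of 0.05.

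TNFAIP3 (chr6:137867214-137883314), encoding A20, rose with siCEACAM6#2. It measured 5.58, 6.59, 7.62 and 8.12 CPM in NTC, 10.7, 14.6, 16 and 10.9 with siCEACAM6#2, and 10.0, 12.9, 11.4 and 9.27 with siCEACAM6#3. In CPM every siRNA sample lay above every NTC sample, and the siRNA groups overlapped each other. In TPM siCEACAM6#3 replicate 4 (3.03) lay below NTC replicate 3 (3.2). The mean was 6.98 ± 1.13 CPM (SD, n = 4) in NTC, 13.1 ± 2.66 with siCEACAM6#2 and 10.9 ± 1.6 with siCEACAM6#3. The difference from NTC was 1.86-fold for siCEACAM6#2 (log2 0.90 ± 0.16, adjusted p = 0.00975). For siCEACAM6#3 it was 1.56-fold (0.64 ± 0.16, adjusted p = 0.138) and did not pass, although the average of both siRNAs did at 1.7-fold (0.77 ± 0.14, adjusted p = 0.0332). The siCEACAM6#3 difference did pass with sample quality weights (adjusted p = 0.0316), with replicate number as a block (0.0408) and by DESeq2 (0.00932). The average call was lost on both log2 TPM scales (adjusted p = 0.147 and 0.159) and in 7 of the 12 fits that left out a sample, those without any 1 of the NTC samples, siCEACAM6#2 replicate 2 or 3, or siCEACAM6#3 replicate 3. The siRNAs did not differ from each other by test (-0.25 log2 units, 95% interval -0.55 to 0.05, adjusted p = 0.484). Without NTC replicate 1 the siCEACAM6#2 difference was 0.80 with adjusted p = 0.0549. Exons of TNFAIP3 overlap those of the antisense gene WAKMAR2, which measured 0.6, 0.616 and 0.53 CPM on average in NTC, siCEACAM6#2 and siCEACAM6#3. The strand setting of the quantification is not given in the sources used here, so reads of the shared sequence cannot be told apart.

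BIRC3 (chr11:102317484-102339403), encoding the ubiquitin ligase cIAP2, which acts on TNF receptor complexes and is itself induced by NF-kB, also rose with siCEACAM6#2. It measured 12.2, 11.6, 14.1 and 15.2 CPM in NTC, 17.6, 19.7, 24.4 and 20.1 with siCEACAM6#2, and 14.3, 17.7, 16.3 and 11 with siCEACAM6#3. In CPM all siCEACAM6#2 samples were above NTC, whereas siCEACAM6#3 overlapped both other groups. In TPM siCEACAM6#2 and NTC overlapped as well. The difference from NTC was 1.54-fold for siCEACAM6#2 (log2 0.62 ± 0.13, adjusted p = 0.0334) and 1.1-fold for siCEACAM6#3 (0.14 ± 0.14, adjusted p = 0.716). Between the siRNAs it was -0.48 ± 0.13 (adjusted p = 0.0914), which missed the threshold. The call was the less secure of the pair, since leaving out any of NTC replicates 1 to 3 or siCEACAM6#2 replicates 2 to 4 ended it, while the log2 difference stayed between 0.53 and 0.70 in all 12 fits that left out a sample. On the log2(TPM + 1) scale, where only 5 genes in all were called with siCEACAM6#2 against NTC, neither gene kept its call (adjusted p = 0.0732 for TNFAIP3 and 0.345 for BIRC3), and on log2(TPM + 0.1) they had adjusted p = 0.0834 and 0.35. BIRC3 also shares exon sequence with an unnamed gene on the opposite strand.

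NFKBIA (chr14:35401079-35404749), encoding IkB alpha, which holds NF-kB in the cytoplasm, measured 83.2, 84.3, 89.8 and 85.2 CPM in NTC, 106, 95.4, 92.1 and 94.2 with siCEACAM6#2, and 89.0, 80.3, 86.6 and 91.4 with siCEACAM6#3. In CPM the siCEACAM6#2 samples lay above all NTC samples and above all siCEACAM6#3 samples. In TPM siCEACAM6#2 replicate 3 (87.9) lay just below NTC replicate 3 (88) and below siCEACAM6#3 replicate 1 (90). The log2 difference was small in size, 0.18 ± 0.06 for siCEACAM6#2 against NTC (adjusted p = 0.155), 0.02 ± 0.06 for siCEACAM6#3 against NTC (adjusted p = 0.921) and -0.16 ± 0.06 between the siRNAs (adjusted p = 0.214), and none passed.

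**Figure D3:**
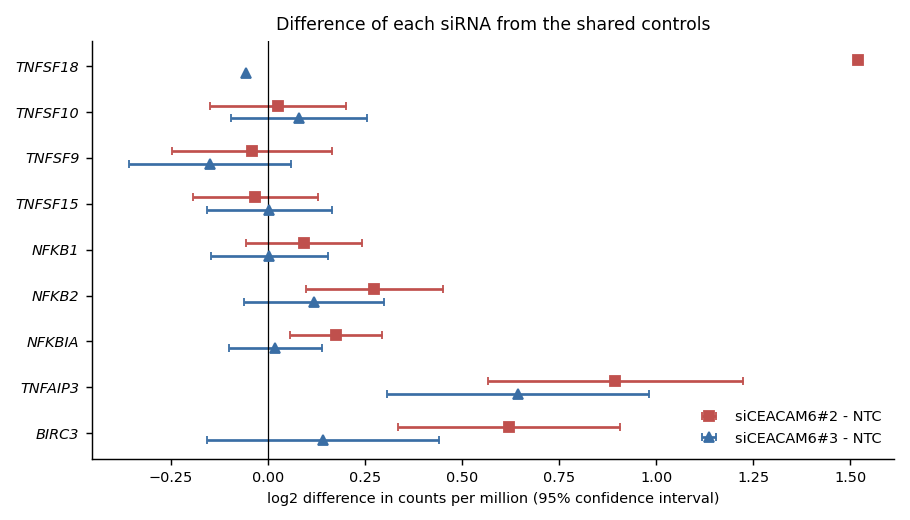
Log2 difference in CPM from the same 4 NTC samples on the x axis for the 9 genes that passed the count filter, with siCEACAM6#2 as squares and siCEACAM6#3 as triangles, and bars giving the 95% interval of limma-voom (not drawn for TNFSF18, which was chosen by its difference). The intervals of TNFAIP3 lie above 0 for both siRNAs and those of NFKB2, NFKBIA and BIRC3 for siCEACAM6#2, before adjustment for the number of genes tested.

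Counted over the 8 tested members other than TNFSF18, 2 passed the adjusted threshold with siCEACAM6#2 against NTC, both higher (TNFAIP3 and BIRC3), where 1.25% of 17620 genes were called. With siCEACAM6#3 against NTC none passed by limma-voom, where 0.0681% of genes were called, and 1 (TNFAIP3) had an unadjusted p under 0.05, as did 12.5% of all genes. The edgeR quasi-likelihood test called 0 and the DESeq2 Wald test 1 in that comparison. For the average of both siRNAs TNFAIP3 alone was called, against 0.227% of genes. Between siCEACAM6#3 and siCEACAM6#2 none of the 8 was called by limma-voom, against 1.47% of genes, with 2 at an unadjusted p under 0.05 (NFKBIA and BIRC3), as had 13.3% of all genes, 0 by edgeR and 1 by DESeq2 (BIRC3).

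Read in CPM as groups that do not overlap, 4 of the 8 (NFKB2, NFKBIA, TNFAIP3 and BIRC3) were higher in all siCEACAM6#2 than in all NTC samples, where 5.34% of all genes were. With siCEACAM6#3, 1 of the 8 (TNFAIP3) was above all NTC samples, where 2.99% of genes were, and 1 of the 8 (NFKBIA) was below all siCEACAM6#2 samples, where 3.34% of genes were. These separations depended on the scale. In TPM only that of TNFAIP3 between siCEACAM6#2 and NTC remained, and the other groups named overlapped. The median log2 difference of the 8 was 0.14 with siCEACAM6#2 and 0.05 with siCEACAM6#3, against medians of 0.000 and -0.003 over all 17620 genes. These comparisons share the NTC samples. Because the 8 genes were chosen with earlier results of these data known, the calls and separations counted here describe them and do not test them as a set. The calls were those of TNFAIP3 and BIRC3, and no other of the 8 had one.

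The rest of the pathway was read from a list of 105 other genes, also chosen with earlier results known, of which 86 were tested. With siCEACAM6#2 against NTC, 5 of the 86 rose and none fell, where 1.25% of all genes were called, 65 had a log2 difference above 0 and 21 below, and the median was 0.10. With siCEACAM6#3 none passed by limma-voom, 0 by edgeR and 2 by DESeq2, while 17 had an unadjusted p under 0.05 (12.5% of all genes did), 54 lay above 0 and 32 below, and the median was 0.05. For the average of both siRNAs, TNFRSF12A and IL32 passed, both higher, where 0.227% of all genes were called. Neither average call survived on a log2 TPM scale, and with single samples left out TNFRSF12A passed in 4 and IL32 in 6 of 12 fits. For TNFRSF12A the call was lost without NTC replicate 1, 2 or 4, siCEACAM6#2 replicate 2, 3 or 4, or siCEACAM6#3 replicate 2 or 3, and for IL32 without NTC replicate 1 or 2, siCEACAM6#2 replicate 2, 3 or 4, or siCEACAM6#3 replicate 3.

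**Figure D4:**
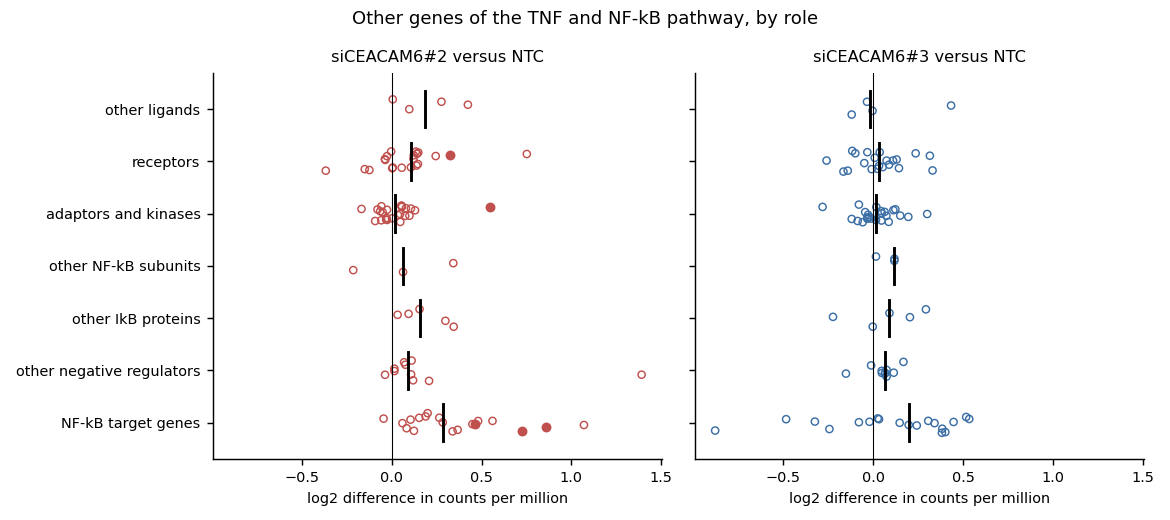
Log2 difference in CPM (x axis) of the 86 tested genes of the other pathway lists (y axis), for siCEACAM6#2 against NTC on the left and siCEACAM6#3 against NTC on the right. Circles are genes, filled where the adjusted p was under 0.05, and black bars are list medians, which is 0.28 for the NF-kB target genes with siCEACAM6#2 and 0.20 with siCEACAM6#3.

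By role, the receptors of the 5 ligands were read first, named for that pairing after their values were seen. TNFRSF18 (GITR), the receptor of TNFSF18, was at 1.29 TPM (0.646 to 1.93), and its 3 groups overlapped. The TRAIL receptors TNFRSF10A and TNFRSF10B, which carry death domains, were at 12.1 and 36.7 TPM, and the decoys TNFRSF10C and TNFRSF10D at 1.3 and 46.2 TPM. TNFRSF25, the receptor of TNFSF15, was at 13.1 TPM. TNFRSF1A, the broadly expressed TNF receptor, was at 78.8 TPM and TNFRSF1B at 2.2 TPM. None of these passed the test in any of the 4 comparisons.

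TNFRSF9 (4-1BB), the receptor of TNFSF9 and known as an NF-kB target in other cells, was low at 0.348 TPM. It had 0.536, 0.757, 0.826 and 0.867 CPM in NTC, 1.81, 1.06, 1.23 and 1.03 with siCEACAM6#2, and 0.807, 0.565, 0.871 and 0.702 with siCEACAM6#3. All siCEACAM6#2 samples lay above the 8 others, and against NTC alone 5.34% of all genes separated this way. The log2 difference from NTC was 0.75 ± 0.24 (adjusted p = 0.159), with only 12 to 40 counts per sample. Its ligand TNFSF9 showed no such separation.

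Over all 29 receptors on the list, 21 were tested and 1 rose with siCEACAM6#2, against 1.25% of all genes called. TNFRSF12A (Fn14, the TWEAK receptor), at 263 TPM the most abundant of them, measured 136, 132, 159 and 154 CPM in NTC, 177, 192, 185 and 173 with siCEACAM6#2, and 165, 173, 168 and 175 with siCEACAM6#3. Every siRNA sample lay above every NTC sample. The difference from NTC was 1.25-fold for siCEACAM6#2 (log2 0.33 ± 0.06, adjusted p = 0.0143), 1.18-fold for siCEACAM6#3 (0.24 ± 0.06, adjusted p = 0.147) and 1.22-fold for the average (adjusted p = 0.0332). TNFRSF21 (death receptor 6), next in level at 202 TPM, was not called. Of 13 other ligands, 4 were tested and none called, with TNFSF13 (APRIL) at 19.9 TPM and TNFSF12 (TWEAK, the ligand of TNFRSF12A) at 4.66 TPM the highest.

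Of the 24 adaptors and kinases, all tested, 1 rose with siCEACAM6#2, against the same 1.25%. TRAF1, an adaptor that binds cIAP proteins and is induced by NF-kB, measured 13.3, 11.6, 14.6 and 14.6 CPM in NTC, 18.9, 19.4, 22.2 and 18.4 with siCEACAM6#2, and 15, 20.2, 16.5 and 15.1 with siCEACAM6#3. Again the siRNA samples were all above NTC in CPM, by 1.46-fold with siCEACAM6#2 (log2 0.55 ± 0.10, adjusted p = 0.0169) and 1.23-fold with siCEACAM6#3 (0.30 ± 0.11, adjusted p = 0.259). In TPM siCEACAM6#3 replicate 4 (4.24) lay below NTC replicate 4 (4.35). The list median was 0.02 for each siRNA. TRAF4 (271 TPM) and IKBKG (58.4 TPM), the regulatory subunit of the IkB kinase, were the most abundant and were not called.

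The IkB proteins and negative regulators beyond the members held no call. This covered 5 other IkB proteins, led by NFKBIB (41.4 TPM) and BCL3 (26.6 TPM), and 10 other negative regulators, led by the A20-binding proteins TAX1BP1 (96.1 TPM) and TNIP1 (93 TPM). With siCEACAM6#2 all 5 IkB genes and 9 of the 10 regulators had a log2 difference above 0, with medians of 0.16 and 0.09. An unadjusted limma-voom p under 0.05 was found for 2 of the 5 and 2 of the 10, where 13.6% of all genes had one. The shared direction was not tested. The 3 other subunits were also uncalled, with RELA at 50.8 TPM and RELB at 13.4 TPM.

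Among the NF-kB target genes, 19 of 21 were tested. With siCEACAM6#2 3 of them rose (IL32, PTGS2 and CXCL8), against that 1.25% over all genes, 18 had a difference above 0, and the median was 0.28. With siCEACAM6#3 none passed, 13 of 19 were above 0, and the median was 0.20. IL1A (128 TPM) and IER3 (114 TPM), the most abundant of the list, were not called.

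IL32, a cytokine gene, measured 4.11, 4.67, 6.79 and 6.94 CPM in NTC, 9.11, 9.51, 10.9 and 10.3 with siCEACAM6#2, and 7.63 to 8.16 with siCEACAM6#3. In CPM every siRNA sample was above NTC, whereas in TPM siCEACAM6#3 replicates 2 (13.1) and 4 (12.2) lay below NTC replicate 4 (13.5). The difference was 1.82-fold for siCEACAM6#2 (log2 0.86 ± 0.14, adjusted p = 0.00561), 1.43-fold for siCEACAM6#3 (adjusted p = 0.17) and 1.61-fold for the average (adjusted p = 0.0321).

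PTGS2 (cyclooxygenase 2) rose from 53.7 ± 4.2 CPM (SD, n = 4) in NTC to 90.3 ± 19.3 with siCEACAM6#2, 1.65-fold (log2 0.73 ± 0.15, adjusted p = 0.0273), and was at 78.8 with siCEACAM6#3 (1.45-fold, adjusted p = 0.179). CXCL8 (interleukin 8) measured 33.9, 34.1, 40.4 and 39.3 CPM in NTC, 47.8, 50.5, 54.8 and 50.3 with siCEACAM6#2, and 46.2, 37.2, 44.4 and 35.9 with siCEACAM6#3, so the NTC and siCEACAM6#3 ranges overlapped. Its difference was 1.38-fold for siCEACAM6#2 (log2 0.47 ± 0.09, adjusted p = 0.0143) and 1.11-fold for siCEACAM6#3 (adjusted p = 0.505). All 5 siCEACAM6#2 calls were lost on both log2 TPM scales. Leaving out samples in turn, the siCEACAM6#2 call of IL32 held in 12 of 12 fits, that of CXCL8 in 9, those of TNFRSF12A and TRAF1 in 8 and that of PTGS2 in 5. The losses came without NTC replicate 1 or 2 or siCEACAM6#2 replicate 3 for these 4 genes, also without siCEACAM6#2 replicate 2 for TNFRSF12A, TRAF1 and PTGS2, and also without NTC replicate 3 or 4 or siCEACAM6#2 replicate 4 for PTGS2.

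**Figure D5:**
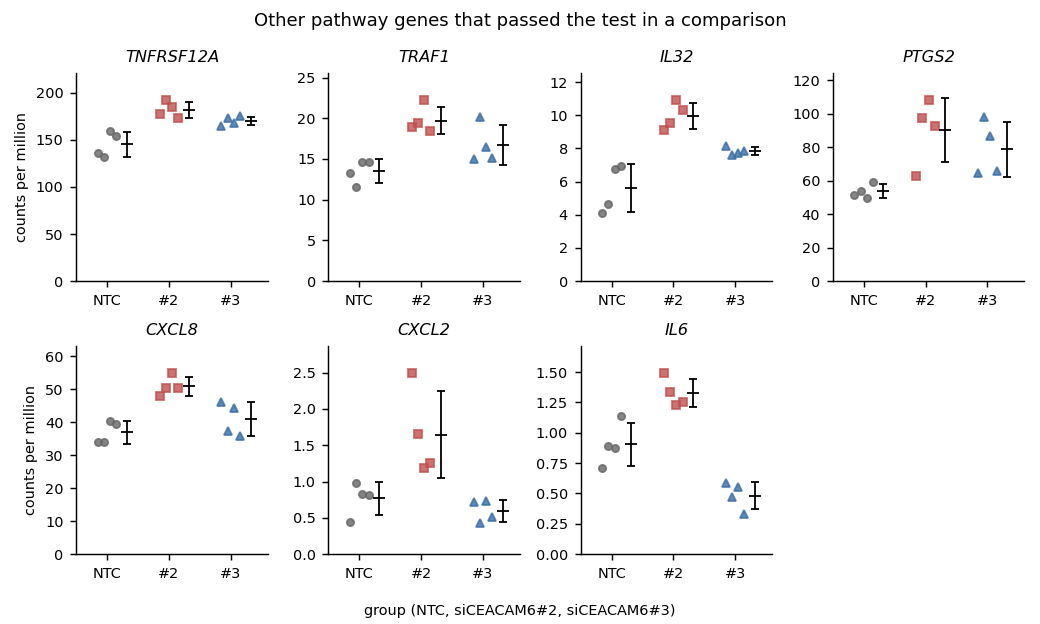
CPM (y axis, from 0) of the 7 other pathway genes that passed the test in a comparison, in NTC (grey circles), siCEACAM6#2 (red squares) and siCEACAM6#3 (blue triangles), with the mean and SD in black. For TNFRSF12A, TRAF1, IL32 and PTGS2 all 8 siRNA samples lie above NTC, and for IL6 the siCEACAM6#3 samples (0.328 to 0.583) lie below all others. Over all genes, 5.34% had all siCEACAM6#2 samples above NTC and 2.99% all siCEACAM6#3 samples, and the share with both was not computed. The genes drawn were picked because they passed the test, which favours such separation.

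Compared directly, siCEACAM6#3 and siCEACAM6#2 differed for 2 of the 86 pathway genes, both lower with siCEACAM6#3, where 1.47% of all genes were called, so the count says little about the pathway. IL6, the cytokine interleukin 6, measured 0.714, 0.89, 0.872 and 1.14 CPM in NTC, 1.49, 1.34, 1.23 and 1.25 with siCEACAM6#2, and 0.583, 0.471, 0.55 and 0.328 with siCEACAM6#3. In CPM its groups were in 3 separate ranges, with siCEACAM6#2 highest and siCEACAM6#3 lowest. In TPM the NTC range (1.22 to 2.08) overlapped those of siCEACAM6#2 (1.99 to 2.37) and siCEACAM6#3 (0.592 to 1.35). IL6 is a low gene with 7 to 33 counts per sample. The difference between the siRNAs was -1.44 ± 0.24 log2 units (adjusted p = 0.00712), while neither siRNA passed against NTC (0.56, adjusted p = 0.22, and -0.88, adjusted p = 0.179). The IL6 call held in all 12 fits that left out a sample and was lost on log2(TPM + 1) (adjusted p = 0.0544) and log2(TPM + 0.1) (0.0675). DESeq2 gave no adjusted p for IL6 or CXCL2.

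CXCL2, a neutrophil chemokine, measured 0.446, 0.979, 0.826 and 0.821 CPM in NTC, 2.49, 1.66, 1.19 and 1.25 with siCEACAM6#2, and 0.718, 0.424, 0.733 and 0.515 with siCEACAM6#3. The difference between the siRNAs was -1.40 ± 0.31 (adjusted p = 0.0324), a call lost without NTC replicate 3, siCEACAM6#2 replicate 1 or 2, or siCEACAM6#3 replicate 2, 3 or 4. It was also lost with no count filter (adjusted p = 0.0524), with sample quality weights (0.0526) and on log2(TPM + 1) (0.0524). Like TNFSF18, it is a low gene with 9 to 55 counts per sample. The median over the 86 genes was -0.06, with 30 above 0 and 56 below, and over the 8 members other than TNFSF18 it was -0.13.

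Across the 12 samples the members varied together only in part. The highest Pearson correlation of log2 CPM was between TNFAIP3 and BIRC3 (r = 0.83), followed by TNFSF18 with NFKBIA (0.82), NFKB2 with TNFAIP3 (0.79) and TNFSF18 with NFKB1 (0.77). TNFSF18 and TNFAIP3 gave 0.35. These are descriptions over 12 samples that share their libraries and 3 group means. Because TNFSF18 was chosen by its difference between groups, its correlations with genes highest with siCEACAM6#2 partly restate that choice. Replicate 2 of siCEACAM6#3 was also the lowest sample for TNFSF18 (0.188 CPM), NFKBIA (80.3) and NFKB1 (50.2), and correlations without it were not computed. The genes most like TNFSF18 among 15018 genes with a mean of at least 1 CPM were RGS2 (r = 0.97), PTS (0.95), PTBP2 (0.93), PRORP (0.92) and CUL3 (0.92). RGS2 averaged 6.35 ± 0.109 CPM (SD, n = 4) in NTC, 8.32 ± 0.704 with siCEACAM6#2 and 6.17 ± 0.981 with siCEACAM6#3. Its choice by likeness to TNFSF18 favoured a gene highest with siCEACAM6#2, so that high mean is not a separate result.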

How the data were processed

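RNA-seq of 12 SNU308 samples (3 groups of 4) was analysed, grouped by the labels. The authors trimmed reads with Trim Galore 0.6.4 and deposited kallisto estimated counts and TPM (abundance scaled by length and library size) per gene, per the labels with kallisto 0.4.6 on GRCh38.p13. Labels and published methods differ on the kallisto version, read layout and transfection reagent. The GENCODE release and strand setting are not given in the sources used here. Estimated counts (69.3% of those above 0 not whole) were rounded, filtered by group with filterByExpr, scaled by TMM and fitted with limma-voom (limma 3.58.1, edgeR 4.0.16, R 4.3.3) in 1 model of 3 groups, with Benjamini-Hochberg adjustment over 17620 genes and a threshold of 0.05. TPM served for levels between genes. Scripts were tested on simulated data.

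The members and lists were chosen with earlier results of these data known, and list counts come with those over all genes in place of a set test. Named were the members, CEACAM6, pathway genes past the threshold, the 2 highest genes by TPM of each list and the 5 genes most like TNFSF18. SOD2 was not analysed here. No donor or culture is named per sample, so p-values measure the spread between these samples, which may be technical. Replicates differed by more than sampling noise. Alternatives were other scalings, filters, weights, blocks and tools (DESeq2 1.42.0 among them), log2 TPM with a pseudocount of 1 or 0.1, and each sample left out in turn. Gene positions are from GENCODE on GRCh38, matching 99.6% of identifiers.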

Additional observations from a re-analysis of the deposited data

Results flagged for a closer look

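Of 27 groups of 4 samples checked over the 9 members that passed the count filter, 2 held a sample far from the others by Dixon's test, where chance alone gives about 1 in 20. TNFSF18 in siCEACAM6#2 replicate 1 was at 2.36 CPM, with the other samples at 1.75, 1.78 and 1.8 (gap over range 0.913). TNFSF10 in NTC replicate 3 was at 10.5 CPM, with the others at 11.5 (gap over range 0.969). The check looks within a group and says nothing about the difference of TNFSF18 between groups.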

How the results depend on the processing

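No direction reversed past the threshold in any alternative, and the siCEACAM6#2 call of CEACAM6 held throughout. The calls in the members (without TNFSF18) and the 86 pathway genes moved more, and the cause was not tested. Values run in the order siCEACAM6#2 against NTC, siCEACAM6#3 against NTC, average against NTC, and siCEACAM6#3 against siCEACAM6#2, where the reported counts were 2, 0, 1 and 0 for members and 5, 0, 2 and 2 for pathway genes. With no count filter, 1 member was called with siCEACAM6#2 and 1 pathway gene between the siRNAs. With sample quality weights, members gave 4, 1 and 2 in the NTC comparisons (NFKB2 and NFKBIA joining for siCEACAM6#2) and pathway genes 13, 1, 8 and 1. The DESeq2 Wald test called 1 member with siCEACAM6#3, 2 for the average and 1 between the siRNAs, and 10, 2, 7 and 1 pathway genes, with no adjusted p for 12, 14, 12 and 12 of the 86. On log2(TPM + 1), 0 members and 0 pathway genes were called in every comparison and CEACAM6 between the siRNAs was 0.329 (adjusted p = 0.0696), and on log2(TPM + 0.1) the counts were 0 apart from 1 pathway gene between the siRNAs, with CEACAM6 at 0.331 (adjusted p = 0.0683).

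Leaving out each sample in turn gave 0 to 2, 0 to 0, 0 to 1 and 0 to 0 members and 1 to 7, 0 to 2, 0 to 5 and 1 to 5 pathway genes, with CEACAM6 at -0.504 to -0.426 for siCEACAM6#3 against NTC (called in 8 of 12) and 0.290 to 0.392 between the siRNAs (called in 10 of 12). Over all genes the reported 221, 12, 40 and 259 calls became 49 to 364, 2 to 258, 3 to 204 and 83 to 651 with a sample left out, and 5 to 1120, 4 to 382, 2 to 899 and 49 to 560 under the other alternatives. Scaling by total count alone split the calls into 91 higher and 126 lower with siCEACAM6#2, 23 and 30 for the average and 112 and 121 between the siRNAs, against 108 and 113, 24 and 16, and 148 and 111.

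Whether the replicate numbers pair the samples cannot be settled here, since weak correlations of deviations do not exclude pairing. Those of 12 same-number pairs had a median of 0.0115 (-0.0602 to 0.224), and those of 36 different-number pairs -0.0182 (-0.251 to 0.179). Of the 12 samples, 4 correlated best with their own number. With the replicate block, 1 member was called with siCEACAM6#3 (TNFAIP3), and 8, 1, 5 and 4 pathway genes. Over all genes the block called 131 higher and 153 lower with siCEACAM6#2, against 108 and 113 without it. With siCEACAM6#3 it called 45 and 42, against 9 and 3. For the average it called 56 and 62, against 24 and 16, and between the siRNAs 203 and 146, against 148 and 111. Depth limits TNF, with 0 to 2 counts, and leaves TNFSF18 with 4 to 52.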

Other observations

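CD70, the ligand of CD27, was among the other ligands below the count filter and is named after its values were seen. It had 8, 10, 12 and 5 counts in NTC, 2, 2, 4 and 3 with siCEACAM6#2, and 7, 8, 8 and 11 with siCEACAM6#3. The siCEACAM6#2 samples held fewer counts than all others, and the difference was not tested.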
